A study of Danio rerio with 4 samples.

Results

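Genes for the machinery of oxidative phosphorylation were followed in sorted endothelial cells of zebrafish embryos that lack the receptor tyrosine kinase tie1. The members were taken by symbol: every row of the expression tables whose name starts with nduf, sdha to sdhd, uqcr, cox4 to cox8 or atp5, and every protein gene whose name starts with mt-. This gave 122 of 29027 rows. Of these, 109 are nuclear genes and 13 are the protein genes of the mitochondrial genome. The nuclear rows comprise 96 that name subunits and 13 that name assembly factors or other proteins.

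The libraries formed 2 groups, with 2 replicates of each. The Homo libraries came from homozygous tie1 mutants (tie1-/-) that had blood flow when they were selected. The WT/Het libraries came from wild-type and heterozygous embryos of the same families, pooled as one group (tie1+/?). All embryos were 47 hours post fertilization and carried the reporters Tg(kdrl:EGFP) and Tg(lyve1:DsRed). Trunks and tails were dissociated, and cells positive for both EGFP and DsRed were sorted as venous and lymphatic endothelium, so the cells depend on the 2 reporter promoters. How many embryos went into a library, and whether the replicates came from separate clutches, is not given in the sources used here, so p-values measure only the spread between these libraries. The question of the comparison is what differs in these cells when tie1 is lost.

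Oxidative phosphorylation takes electrons from NADH and succinate through complexes I to IV of the inner mitochondrial membrane to oxygen, and the proton gradient built on the way drives ATP synthase, complex V. Complex II is encoded by nuclear genes alone, whereas complexes I, III, IV and V combine nuclear subunits with subunits encoded by the mitochondrial genome. The mitochondrial genome is transcribed as long precursors that are cut into single messengers, while each nuclear subunit has a promoter of its own. Endothelial cells are known to draw much of their ATP from glycolysis and still need respiration.

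Expression is given as TPM, a transcript abundance scaled for length and for the total of the library. The libraries differed before any member was compared. The listed rows summed to 602394 and 481065 TPM in Homo replicates 1 and 2, against 813042 and 736606 TPM in WT/Het replicates 1 and 2. The median row had 8.0 and 11.1 TPM in the Homo libraries, against 2.59 and 4.16 TPM in the WT/Het libraries. A background limit for each library was taken as the 95th percentile of 306 genes for sensory receptors and gamma crystallins of the lens, which have no known place in endothelium. It was 14.2 and 19.0 TPM in the Homo libraries and 4.34 and 6.49 TPM in the WT/Het libraries. Read depth is unknown. The targeted gene tie1 had 16.7 and 10.2 TPM in the Homo libraries, against 61.0 and 31.0 TPM in the WT/Het libraries, so the groups did not overlap (limma log2 fold change -1.66, SE 0.78, adjusted p = 0.0605). The 15 endothelial markers, all above 0 in every library, summed to 1584 and 457 TPM in the Homo libraries and to 4535 and 3748 TPM in the WT/Het libraries. The 10 venous and lymphatic markers summed to 1172 and 449 TPM in the Homo libraries and to 3126 and 2394 TPM in the WT/Het libraries. Of the lists for other cells, the 10 erythroid markers summed to 1908 and 669.7 TPM in the Homo libraries and to 5185 and 4331 TPM in the WT/Het libraries, and the 11 myeloid markers to 849.7 and 362 TPM in the Homo libraries and to 768 and 674 TPM in the WT/Het libraries. The 11 epidermal markers summed to 767 and 282 TPM in the Homo libraries and to 1385 and 896 TPM in the WT/Het libraries. Neural and mural markers were low, with list sums of at most 191 TPM in any library, and gap43 and PDGFRB were listed at 0 throughout. By the limma test described next, 11 endothelial, 4 venous and lymphatic, 3 erythroid, 4 myeloid and 1 epidermal marker were called lower, and 0, 1, 3, 1 and 4 higher. Of the neural and mural markers 6 and 3 were called higher and none lower. Each of these neural and mural rises lay under the background limit in every library. Of all rows tested, 4.43% were called lower and 44.6% higher. Of the sensory and lens genes tested, 0.329% were called lower and 72.7% higher. The part of these cell types in the values of the members was not tested. In bulk libraries, fewer cells of a type and less RNA per cell cannot be told apart.

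Fold changes come from a limma fit across all 28301 rows with a mean TPM of at least 1. They are on the log2(TPM + 1) scale, Homo minus WT/Het, and p-values were adjusted over all rows with a threshold of 0.05. The fit took the variance of each gene wholly from the trend with expression level, so a p-value does not measure the spread of that gene's own replicates. Both ndufa13 and NDUFAF3 were listed at 0 in every library and were not tested, which left 107 nuclear and 13 mitochondrially encoded members.

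The mitochondrially encoded genes were abundant in every library, and their levels lay closer together in the Homo libraries than in the WT/Het libraries. Their lowest value in a library was 23.2 and 28.4 times the background limit in the Homo libraries, and 41.3 and 29.9 times in the WT/Het libraries. The ratio of the highest to the lowest of the 13 genes was 4.38 and 2.23 in the Homo libraries, against 17.5 and 8.60 in the WT/Het libraries. Ratios within a library do not change when the library is multiplied by 1 factor, but quantile normalization and background subtraction can change them. All 13 genes ranked among the 100 most abundant rows in Homo replicate 2 and 7 did so in Homo replicate 1, against 4 in each WT/Het library.

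The catalytic core of complex IV and the mitochondrial subunit of complex III had lower TPM in the Homo libraries. For mt-co1, which carries the oxygen-reducing centre, the values were 1159 and 1208 TPM in the Homo libraries and 1922 and 1299 TPM in the WT/Het libraries. The gene mt-co2, whose product accepts electrons from cytochrome c, had 1439.6 and 1109.5 TPM in the Homo libraries and 3141 and 1667 TPM in the WT/Het libraries. For mt-co3, the remaining core subunit, they were 1227 and 1037 TPM in the Homo libraries and 2808 and 1444 TPM in the WT/Het libraries. In each of these genes both Homo libraries lay below both WT/Het libraries, and WT/Het replicate 1 was the highest library. The gene mt-cyb, for cytochrome b of complex III, showed the same order of groups, with 942 and 885 TPM in the Homo libraries against 1513 and 1116 TPM in the WT/Het libraries. The log2 fold changes of these 4 genes lay between -0.86 for mt-co2 and -0.42 for mt-co1.

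The mitochondrial subunits of complex I, which form its proton-pumping membrane arm, stood the other way in the deposited TPM. The gene mt-nd3 had 329 and 618 TPM in the Homo libraries, against 179 and 194 TPM in the WT/Het libraries. For mt-nd4l the values were 369 and 541 TPM in the Homo libraries and 187 and 232 TPM in the WT/Het libraries. For mt-nd5 they were 433 and 634 TPM in the Homo libraries and 207 and 339 TPM in the WT/Het libraries. Homo replicate 2 was the highest library for every one of the 7 mt-nd genes, and the groups did not overlap for 6 of them. The exception was mt-nd4, with 455 and 648 TPM in the Homo libraries and 488 and 333 TPM in the WT/Het libraries. The gene mt-nd6, the only protein gene on the light strand of the vertebrate mitochondrial genome, had 577 and 1015 TPM in the Homo libraries and 354 and 507 TPM in the WT/Het libraries. For mt-nd1 the Homo libraries had 458 and 669 TPM and the WT/Het libraries 349.6 and 351.6 TPM. For mt-nd2 the Homo libraries had 344 and 681 TPM and the WT/Het libraries 305 and 295 TPM. The log2 fold changes of the 7 genes ranged from 0.43 for mt-nd4 to 1.27 for mt-nd3.

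Both mitochondrial subunits of ATP synthase sit in its membrane part. Their log2 fold changes were 0.62 for mt-atp8, within the range of the mt-nd genes, and 0.11 for mt-atp6, below it. The gene mt-atp8 had 625 and 734 TPM in the Homo libraries and 515 and 377 TPM in the WT/Het libraries, with no overlap. The proton channel subunit mt-atp6 had 636 and 972 TPM in the Homo libraries and 918 and 577 TPM in the WT/Het libraries, and the groups overlapped. In RefSeq's GRCz12tu annotation mt-atp8 overlaps mt-atp6, mt-atp6 overlaps mt-co3, mt-nd4l overlaps mt-nd4 and mt-nd5 overlaps mt-nd6. Whether strand was used in counting is not given in the sources used here, so reads of such neighbours may be shared between them.

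None of the 13 mitochondrially encoded genes passed the limma test, and 0 of 13 had even an unadjusted p under 0.05. Their adjusted p-values in limma ranged from 0.24 for mt-nd3 to 0.92 for mt-atp6. As background, 44.6% of all rows tested were called higher and 4.43% lower in the Homo libraries. Their log2 fold changes had a median of 0.62, beside 1.17 for all rows tested and -1.77 for the 296 rows with a mean TPM of at least 300. Of those abundant rows, 35.8% were called lower and 0.676% higher. Groups did not overlap for 7 of the 13 genes with the Homo libraries above and for 4 with the Homo libraries below. Of all rows tested 65.8% lay above and 12% below, and of the 296 abundant rows 12.5% lay above and 81.4% below. The direction of single mitochondrial genes depended on the scaling: 9 had a positive and 4 a negative log2 fold change as deposited, all 13 were negative after median-of-ratios rescaling, and all 13 were positive after quantile normalization. In the limma fit without Homo replicate 1, 9 of the 13 log2 fold changes were positive and 4 negative. Their median there was 0.74, beside 1.35 for all rows. In the fit without Homo replicate 2, 8 were positive and 5 negative, with a median of 0.20, beside 0.95 for all rows. Each of these fits has a Homo group of 1 library.

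The difference between the mitochondrial genes of complex I and those of complexes III and IV can be read within each library. The median of mt-co1, mt-co2, mt-co3 and mt-cyb was 2.76 and 1.66 times the median of the 7 mt-nd genes in the Homo libraries, against 7.74 and 4.12 times in the WT/Het libraries. Both Homo ratios lay below both WT/Het ratios. The ranking of the 13 genes was nonetheless alike: Spearman's rho across the 13 genes was 0.88 between the 2 Homo libraries and 0.95 between the 2 WT/Het libraries, and 0.88 to 0.98 between a Homo and a WT/Het library (a description across genes of 1 genome).

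**Figure D1:**
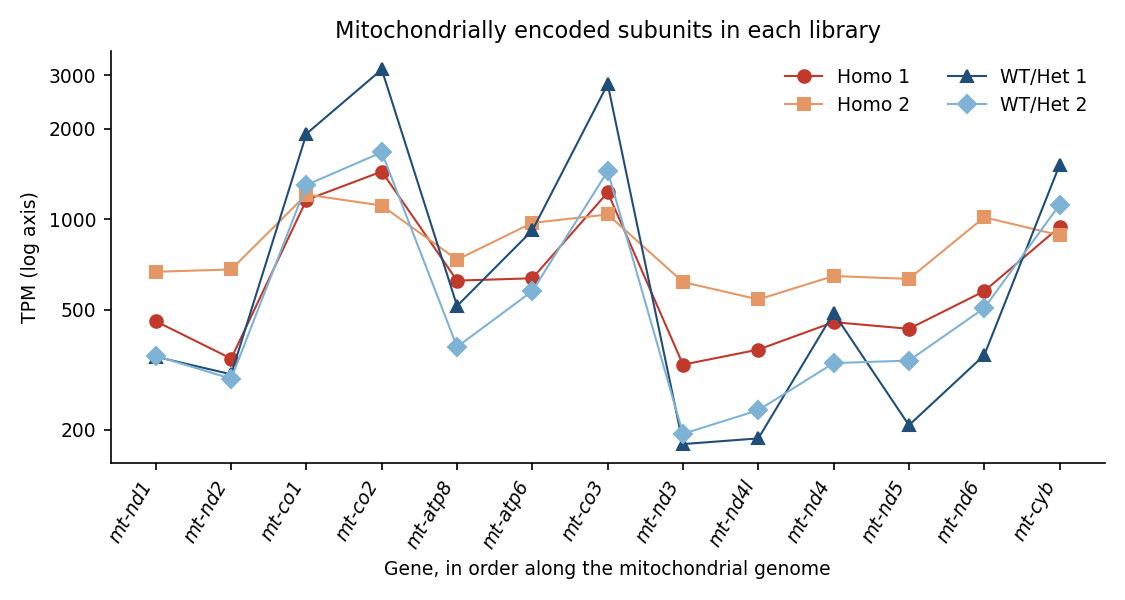
TPM of the 13 mitochondrially encoded genes (log axis) in each of the 4 libraries, in the order of the genes along the mitochondrial genome. As deposited, the mt-co genes and mt-cyb were lower and 6 of 7 mt-nd genes higher in both Homo libraries; the mt-nd genes turned negative under median-of-ratios rescaling and the mt-co genes and mt-cyb positive under quantile normalization. The highest to lowest ratio was 2.23 in Homo replicate 2 and 17.5 in WT/Het replicate 1.

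Summed over all members, nuclear TPM were lower in both Homo libraries than in both WT/Het libraries, while the mitochondrial sums of the groups overlapped. The 109 nuclear rows summed to 14959 and 6295 TPM in the Homo libraries, against 27835 and 25598 TPM in the WT/Het libraries. That is 2.48% and 1.31% of the listed TPM in the Homo libraries and 3.42% and 3.48% in the WT/Het libraries. All rows with a mean TPM of at least 50 also had a smaller share in the Homo libraries. They carried 56.0% and 35.2% of the listed TPM there, against 75.5% and 70.7% in the WT/Het libraries. The 13 mitochondrial rows summed to 8994 and 10750.1 TPM in the Homo libraries and to 12888 and 8731 TPM in the WT/Het libraries. The sum of the nuclear rows was 1.66 and 0.586 times that of the mitochondrial rows in the Homo libraries, against 2.16 and 2.93 times in the WT/Het libraries. In Homo replicate 2 alone the mitochondrial rows outweighed the nuclear rows.

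**Figure D2:**
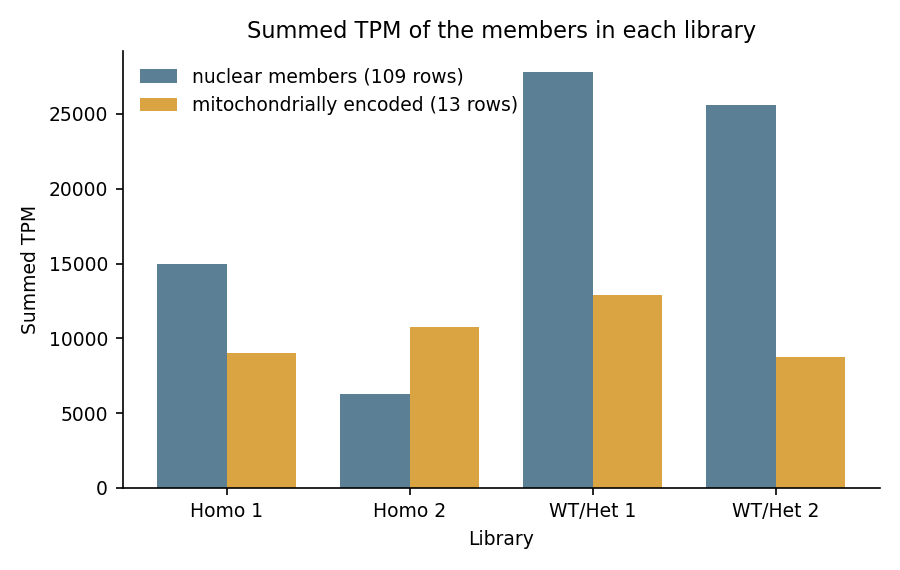
Summed TPM of the 109 nuclear and the 13 mitochondrially encoded rows in each library; bars start at 0. The nuclear sum was 14959 and 6295 TPM in the Homo libraries and 27835 and 25598 TPM in the WT/Het libraries, while the mitochondrial sums of the groups overlapped. All rows with a mean TPM of at least 50 also carried a smaller share of the listed TPM in the Homo libraries.

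Among the nuclear members, 24 of 107 tested rows fell and 9 rose in the Homo libraries by limma's adjusted p, and 74 did not pass. The 24 that fell, 22.4% of those tested, stand beside 4.43% of all rows called lower. Abundant rows fell more often, however: of the 1788 rows with a mean TPM of at least 50, 33% were called lower and 0.168% higher, and of the 75 nuclear members at that level 19 were called lower, or 25.3%, and 0 higher. The median log2 fold change of those 75 members was -1.49, beside -1.67 for the 1788 rows. All 75 had a negative log2 fold change, as had 1664 of the 1788 rows, and for 67 of the 75 both Homo libraries lay below both WT/Het libraries, where 76% of the 1788 rows did (and 4.31% lay above). The mean that sets this level runs over both groups, and some members reach it through the WT/Het libraries alone, so the choice by level itself favours a negative direction, in the members as in the other rows. The share of these members called lower was thus under that of rows of like abundance, and the share with both Homo libraries below was over it. Neither difference was tested. After background subtraction, quantile normalization or rescaling by the median of ratios, limma called 0 rows in the whole table and so no nuclear member. The nuclear median log2 fold change was -1.73 after background subtraction, -0.21 after quantile normalization and -2.69 after the rescaling. Beside these stand -1.18, 0.05 and 0.03 for all rows in the same fits. The count of falls also rested on single libraries, as did the count over all rows tested. Over the whole table, calls of lower were fewest in the fit without WT/Het replicate 1. Not passing in that fit therefore does not set a member apart. In fits without Homo replicate 1 or 2, the nuclear median log2 fold change was -1.95 and -0.68, beside 1.35 and 0.95 for all rows. Without WT/Het replicate 1 or 2 it was -1.30 and -1.36, beside 0.94 and 1.425. Each of these fits has a group of 1 library, which is assumed to vary like the others. The gene uqcrc2b was called lower in each of the 4, with both of its Homo values under the background limits.

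The Homo libraries differed from each other in the nuclear members, as they did over abundant rows in general. Of the 75 more abundant nuclear members, 67 were lower in Homo replicate 2 than in Homo replicate 1, whereas only 3 of the 13 mitochondrial genes were. The median of the 75 was 125 and 44.7 TPM in Homo replicates 1 and 2. For all 1788 rows at that level it was 89.6 and 33.3 TPM. In each WT/Het library the nuclear median stood well above the median of the sensory and lens genes, by 75.4 and 39.3 times, against 7.92 and 3.05 times in Homo replicates 1 and 2. Above the background limit lay 77 and 73 of the 109 nuclear rows in the Homo libraries and 93 and 94 in the WT/Het libraries. Of all 29027 rows, 4783 and 3013 lay above it in the Homo libraries and 9474 and 9022 in the WT/Het libraries. Across the 109 nuclear rows, log2(TPM + 1) correlated with a Pearson's r of 0.83 between the 2 Homo libraries and 0.97 between the 2 WT/Het libraries (a description across genes that share these libraries).

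**Figure D3:**
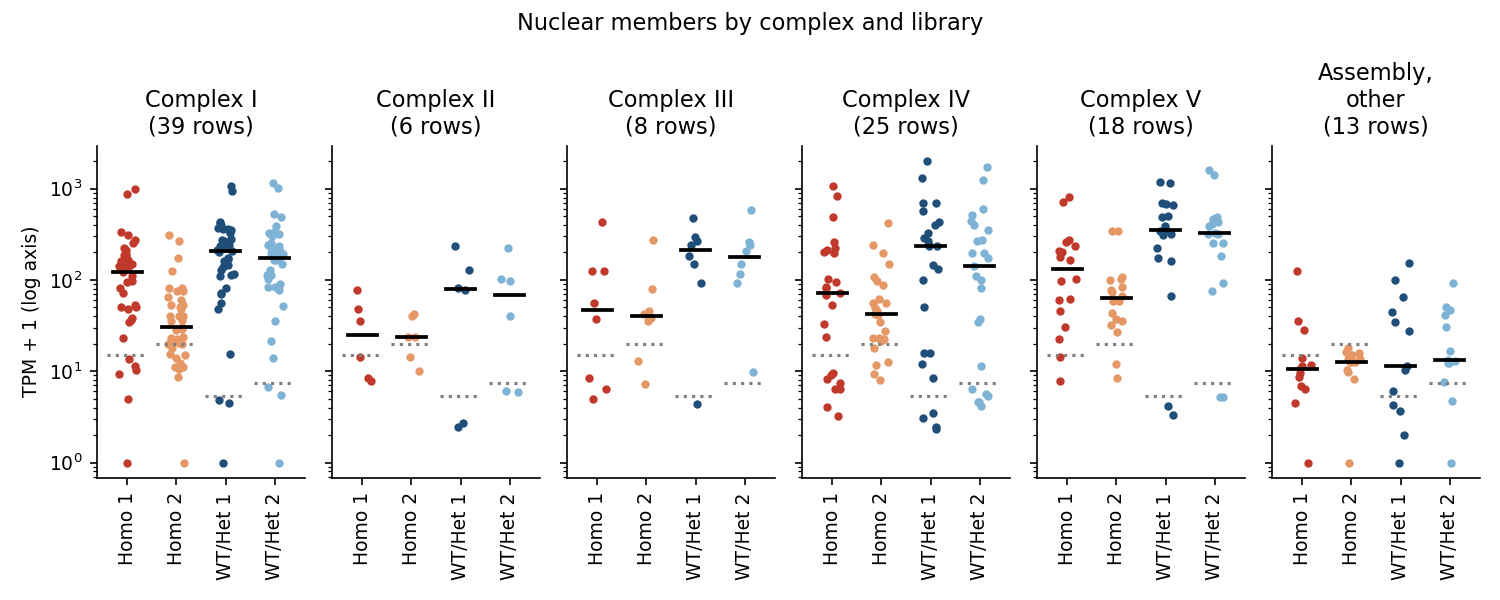
TPM + 1 (log axis) of each nuclear row in each library, by complex; points are rows, black bars medians and dotted lines the background limit of the library. The dotted limits, 14.2 and 19.0 TPM in the Homo libraries, run much closer to the medians there than the 4.34 and 6.49 TPM of the WT/Het libraries.

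Complex I, the NADH dehydrogenase, had 39 nuclear rows, of which 38 were tested. In these, 8 fell (21.1%), 1 rose (2.63%) and 29 did not pass, with a median log2 fold change of -1.30. Of all rows tested, 4.43% were called lower and 44.6% higher. Of rows with a mean TPM of at least 50, 33% were called lower and 0.168% higher. The core subunits bind the flavin and the iron-sulfur clusters that carry electrons from NADH to ubiquinone. Of the 8 core rows 2 fell and 1 rose. The NADH-binding subunit ndufv1 had 12.5 and 13.1 TPM in the Homo libraries and 69.9 and 102 TPM in the WT/Het libraries (limma log2 fold change -2.63, SE 0.82, adjusted p = 0.0152). Both of its Homo values were under the background limit. Without WT/Het replicate 1 ndufv1 did not pass in limma (adjusted p = 0.12).

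Accessory subunits surround the core and are needed for its assembly and stability. All 30 accessory rows tested had a negative log2 fold change as deposited, and 6 fell, or 20.0%, where 1664 of the 1788 rows with a mean TPM of at least 50 were negative and 33% of them were called lower. The largest fall was in ndufa8, with 21.9 and 17.0 TPM in the Homo libraries and 269 and 174 TPM in the WT/Het libraries (limma log2 fold change -3.42, SE 0.90, adjusted p = 0.00573). The second Homo value of ndufa8 was under the background limit. The other accessory rows that fell were ndufb6, ndufb2, ndufs4, ndufs5 and ndufb11, with limma log2 fold changes from -2.86 for ndufb6 to -2.17 for ndufb11. Among them, the second Homo value of ndufb6 and the first of ndufb2 were also under the limit. In limma without WT/Het replicate 1, where few rows of the whole table were called lower, the accessory rows that fell did not pass. The log2 fold change of ndufa8 lay between -3.73 and -3.10 in the fits that left out a library. Without WT/Het replicate 2, ndufs4, ndufs5 and ndufb11 did not pass (adjusted p in limma 0.0613, 0.208 and 0.133), nor did ndufs4 and ndufs5 without Homo replicate 2 (0.0563 and 0.285). The 3 most abundant rows of the complex are membrane-arm subunits that did not pass. The gene ndufb8 had 883 and 314 TPM in the Homo libraries and 1074 and 1160.1 TPM in the WT/Het libraries. For ndufb9 the values were 979.9 and 268 TPM in the Homo libraries and 935 and 1026 TPM in the WT/Het libraries, so the groups overlapped. For ndufb10 they were 330.5 and 75.03 TPM in the Homo libraries and 365 and 522 TPM in the WT/Het libraries. In all 3 genes Homo replicate 2 was the lowest library, and their limma log2 fold changes were -1.08, -0.93 and -1.46. The first 2 of these were positive after quantile normalization.

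Complex II, succinate dehydrogenase, also works in the citric acid cycle. Of its 6 rows 1 fell and 1 rose, or 16.7% each, where 4.43% of all rows tested were called lower and 44.6% higher. The flavoprotein sdha fell to 7.48 and 22.5 TPM in the Homo libraries, against 81.0 and 39.5 TPM in the WT/Het libraries (limma log2 fold change -2.03, SE 0.80, adjusted p = 0.0313). It did not pass in limma without Homo replicate 1 (adjusted p = 0.14) or without WT/Het replicate 1 (0.238). The first Homo value of sdha was under the background limit. The iron-sulfur subunit sdhb had 77.3 and 41.5 TPM in the Homo libraries and 234 and 221 TPM in the WT/Het libraries. The membrane anchor sdhc had 34.8 and 22.7 TPM in the Homo libraries and 126 and 96.8 TPM in the WT/Het libraries. A row for the other anchor, sdhdb, had 46.9 and 39.3 TPM in the Homo libraries and 75.9 and 102 TPM in the WT/Het libraries. No Homo value of these 3 genes reached a WT/Het value, but their adjusted p-values in limma were 0.0634, 0.056 and 0.317, and the log2 fold change of sdhdb was positive after quantile normalization. A further row for that anchor stood the other way, with 6.84 and 8.98 TPM in the Homo libraries and 1.48 and 5.09 TPM in the WT/Het libraries. Each of its values was under the background limit, and it did not pass (limma log2 fold change 1.19, adjusted p = 0.0502). The row that rose, SDHB_(2_of_2), had 13.2 and 13.3 TPM in the Homo libraries and 1.68 and 4.91 TPM in the WT/Het libraries (limma log2 fold change 1.84, SE 0.56, adjusted p = 0.0131), and every one of its values was under the background limit. It passed in limma without WT/Het replicate 2 and in no other fit that left out a library, where its adjusted p lay between 0.0917 and 0.237.

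Complex III, the cytochrome bc1 complex, had 3 rows that fell among 8, or 37.5%, and none that rose. Of all rows tested 4.43% were called lower, and of rows with a mean TPM of at least 50, 33%. The 3 that fell are large or catalytic subunits. A further core protein row of the complex did not pass (limma log2 fold change -0.13, adjusted p = 0.835). It had 3.91 and 6.30 TPM in the Homo libraries and 3.40 and 8.80 TPM in the WT/Het libraries. Only the last of these values was above the background limit. The core protein gene uqcrc1 had 7.44 and 41.6 TPM in the Homo libraries and 268 and 238 TPM in the WT/Het libraries (limma log2 fold change -3.74, SE 0.90, adjusted p = 0.00267). Its partner uqcrc2b had 5.45 and 11.8 TPM in the Homo libraries and 91.3 and 92.1 TPM in the WT/Het libraries (limma log2 fold change -3.35, SE 0.80, adjusted p = 0.00229). Both Homo values of uqcrc2b and the first of uqcrc1 were under the background limit. The Rieske iron-sulfur protein gene uqcrfs1 had 36.4 and 34.2 TPM in the Homo libraries and 291 and 257 TPM in the WT/Het libraries (limma log2 fold change -2.92, SE 0.93, adjusted p = 0.0162). Without WT/Het replicate 1, uqcrc1 and uqcrfs1 did not pass (adjusted p in limma 0.109 and 0.191), and uqcrfs1 did not without WT/Het replicate 2 (0.0771).

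The small subunits of complex III showed smaller differences that did not pass. The gene uqcrb had 435 and 276 TPM in the Homo libraries and 481 and 583 TPM in the WT/Het libraries, a log2 fold change of -0.61 as deposited and of 0.76 after quantile normalization. For uqcrq the values were 123.6 and 79.1 TPM in the Homo libraries and 183 and 206 TPM in the WT/Het libraries, a log2 fold change of -0.97 as deposited and of 0.44 after quantile normalization. Within a library, uqcrb was 6.63 times as abundant per length as uqcrc1 in Homo replicate 2, against 1.798 and 2.448 times in the WT/Het libraries. As uqcrc1 was named for its fall, a higher Homo ratio follows in part from that choice. No ratio is given for Homo replicate 1, where uqcrc1 was under the background limit.

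Complex IV, cytochrome c oxidase, had 25 nuclear rows, counting the 4 ndufa4-named rows whose product was once placed in complex I. In these, 5 fell (20%), 4 rose (16%) and 16 did not pass, with a median log2 fold change of -0.91. Of all rows tested, 4.43% were called lower and 44.6% higher, and of rows with a mean TPM of at least 50, 33% and 0.168%. The largest fall of any member was in cox5ab, with 22.6 and 8.43 TPM in the Homo libraries and 327 and 195 TPM in the WT/Het libraries (limma log2 fold change -4.09, SE 0.89, adjusted p = 7.46e-04). Its duplicate cox5aa had 52.4 and 55.2 TPM in the Homo libraries and 234 and 198 TPM in the WT/Het libraries and did not pass (limma adjusted p = 0.0633). The ratio of cox5aa to cox5ab was 2.32 in Homo replicate 1, against 0.716 and 1.02 in the WT/Het libraries. The choice of cox5ab for its fall itself favours a higher Homo ratio. No ratio is given for Homo replicate 2, where cox5ab was under the background limit. Without WT/Het replicate 1, cox5ab did not pass in limma (adjusted p = 0.0754).

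The other nuclear subunits of complex IV that fell were cox6b2, cox8a, cox6a1 and cox4i2. The gene cox6b2 had 194 and 41.4 TPM in the Homo libraries and 692 and 398 TPM in the WT/Het libraries (limma log2 fold change -2.53, SE 0.95, adjusted p = 0.0272). For cox8a, cox6a1 and cox4i2 the limma log2 fold changes were -2.21, -2.16 and -2.11 with adjusted p-values of 0.0421, 0.0488 and 0.0467. No one of these 4 genes passed in limma without WT/Het replicate 1 or without WT/Het replicate 2 (adjusted p from 0.151 to 0.434), and cox4i2 did not without Homo replicate 2 (0.256). The most abundant row of the complex, cox7c, had 1059.6 and 421 TPM in the Homo libraries and 2020.4 and 1727 TPM in the WT/Het libraries and did not pass (limma adjusted p = 0.135). The row COX5B_(2_of_3) had 825 and 149.7 TPM in the Homo libraries and 1317 and 1234 TPM in the WT/Het libraries (limma adjusted p = 0.0746). For cox7a2a the values were 485 and 239 TPM in the Homo libraries and 691 and 594 TPM in the WT/Het libraries (limma adjusted p = 0.397), and its log2 fold change was positive after quantile normalization. In these 3 abundant genes no Homo value reached a WT/Het value, and Homo replicate 2 was the lowest library.

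Several subunits of complex IV exist as isoforms whose use differs between tissues in mammals. Of the cox4 isoforms, the general form cox4i1 had 260.2 and 44.6 TPM in the Homo libraries and 264 and 275 TPM in the WT/Het libraries. The form known in mammals from lung and for its response to low oxygen, cox4i2, had 80.1 and 21.3 TPM in the Homo libraries and 238 and 141 TPM in the WT/Het libraries. The ratio of cox4i1 to cox4i2 was 3.25 and 2.09 in the Homo libraries and 1.11 and 1.95 in the WT/Het libraries, so cox4i1 was the more abundant of these forms in every library. A further row, cox4i1l, had 2.195 and 20.3 TPM in the Homo libraries and 1.32 and 3.64 TPM in the WT/Het libraries and was called higher (limma log2 fold change 1.33, SE 0.53, adjusted p = 0.0337) although its groups overlapped. Without Homo replicate 2 its log2 fold change was -0.04, and without WT/Het replicate 1 its adjusted p in limma was 0.283.

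Isoforms that mammals use in heart and skeletal muscle were read at lower levels than the most abundant subunits of the complex. The muscle form cox6a2 had 3.05 and 48.3 TPM in the Homo libraries and 14.7 and 33.8 TPM in the WT/Het libraries, and the groups overlapped. Its widely expressed counterpart cox6a1 had 202.5 and 61.0 TPM in the Homo libraries and 571 and 439.5 TPM in the WT/Het libraries. It was 66.4 and 1.265 times as abundant as cox6a2 in the Homo libraries, against 38.8 and 13 times in the WT/Het libraries. The Homo ratios thus lay on both sides of the WT/Het ratios, and cox6a2 was under the background limit in Homo replicate 1. The gene cox8b, a muscle form in mice, had 31.98 and 26.6 TPM in the Homo libraries and 49.8 and 36.5 TPM in the WT/Het libraries, all above the limits, and did not pass (limma adjusted p = 0.583). The muscle form cox7a1 had 8.18 and 17.1 TPM in the Homo libraries and 2.52 and 3.64 TPM in the WT/Het libraries, each under the background limit of its library, and was called higher (limma log2 fold change 1.67, SE 0.55, adjusted p = 0.0178). It passed without WT/Het replicate 2 and in no other limma fit that left out a library, where its adjusted p lay between 0.0648 and 0.335. The 24 skeletal muscle markers summed to 365 and 592 TPM in the Homo libraries and to 555 and 1559.9 TPM in the WT/Het libraries, none at 0, and 13 of 24 were above the limit in both WT/Het libraries against 3 in both Homo libraries. Of the 24 markers limma called 3 lower and 6 higher, where 4.43% and 44.6% of all rows tested were called. The part of muscle RNA in these TPM values was not tested.

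Complex V, ATP synthase, had 18 nuclear rows, of which 4 fell (22.2%) and 1 rose (5.56%), with a median log2 fold change of -1.56. Of all rows tested, 4.43% were called lower and 44.6% higher, and of rows with a mean TPM of at least 50, 33% and 0.168%. All 5 rows of its catalytic F1 head had a negative log2 fold change as deposited, with both Homo libraries below both WT/Het libraries, which 76% of the rows with a mean TPM of at least 50 also showed. The catalytic subunit atp5b (RefSeq atp5f1b) fell to 29.7 and 31.3 TPM in the Homo libraries, against 316 and 316 TPM in the WT/Het libraries (limma log2 fold change -3.33, SE 0.93, adjusted p = 0.00869; 0.161 without WT/Het replicate 1). Replicates of each group lay close together for this gene. The other large head subunit, atp5a1, had 60.1 and 36.2 TPM in the Homo libraries and 160.3 and 74.2 TPM in the WT/Het libraries and did not pass (limma adjusted p = 0.241). The rotor subunit atp5c1 (RefSeq atp5f1c) had 717 and 341 TPM in the Homo libraries and 1152 and 1406 TPM in the WT/Het libraries and did not pass either (limma adjusted p = 0.183). The ratio of atp5c1 to atp5b was 24.2 and 10.9 in the Homo libraries, against 3.65 and 4.46 in the WT/Het libraries. As atp5b was named after its fall was seen, a higher Homo ratio follows in part from that choice. Set against atp5a1, the ratio of atp5c1 was 11.9 and 9.43 in the Homo libraries and 7.19 and 18.95 in the WT/Het libraries. The groups overlapped in that second ratio.

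The membrane ring of subunit c, which turns as protons pass, is encoded by several genes in vertebrates. For atp5g3b (RefSeq atp5mc3b) the values were 165 and 58.3 TPM in the Homo libraries and 686 and 462 TPM in the WT/Het libraries (limma log2 fold change -2.51, SE 0.95, adjusted p = 0.028). For atp5g3a (RefSeq atp5mc3a) they were 58.8 and 98.9 TPM in the Homo libraries and 391.7 and 410.9 TPM in the WT/Het libraries (limma log2 fold change -2.38, SE 0.95, adjusted p = 0.0336). For atp5g1 (RefSeq atp5mc1) they were 100.3 and 76.3 TPM in the Homo libraries and 349 and 319 TPM in the WT/Het libraries, and the gene did not pass (limma adjusted p = 0.0757). All 3 c-ring genes were lower in both Homo libraries, with Homo replicate 2 lowest for atp5g3b and atp5g1 and Homo replicate 1 lowest for atp5g3a. The stalk subunit atp5h (RefSeq atp5pd) also fell (limma log2 fold change -2.59, SE 0.95, adjusted p = 0.0247). Without WT/Het replicate 1 or WT/Het replicate 2 these 3 falls did not pass in limma (adjusted p from 0.119 to 0.371).

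The most abundant row of complex V was atp5o (RefSeq atp5po), which links the head to the peripheral stalk. It had 816 and 339.7 TPM in the Homo libraries and 1181 and 1617 TPM in the WT/Het libraries and did not pass (limma adjusted p = 0.172). The stalk gene atp5f1 (RefSeq atp5pb) had 258 and 65.9 TPM in the Homo libraries and 691 and 459 TPM in the WT/Het libraries, and did not pass (limma adjusted p = 0.0543). The row that rose, ATP5J_(3_of_3), had 13.1 and 11.1 TPM in the Homo libraries and 2.34 and 4.17 TPM in the WT/Het libraries, each under the limit of its library (limma log2 fold change 1.65, SE 0.55, adjusted p = 0.019). It passed without WT/Het replicate 2 and in no other limma fit that left out a library, where its adjusted p lay between 0.124 and 0.257.

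**Figure D4:**
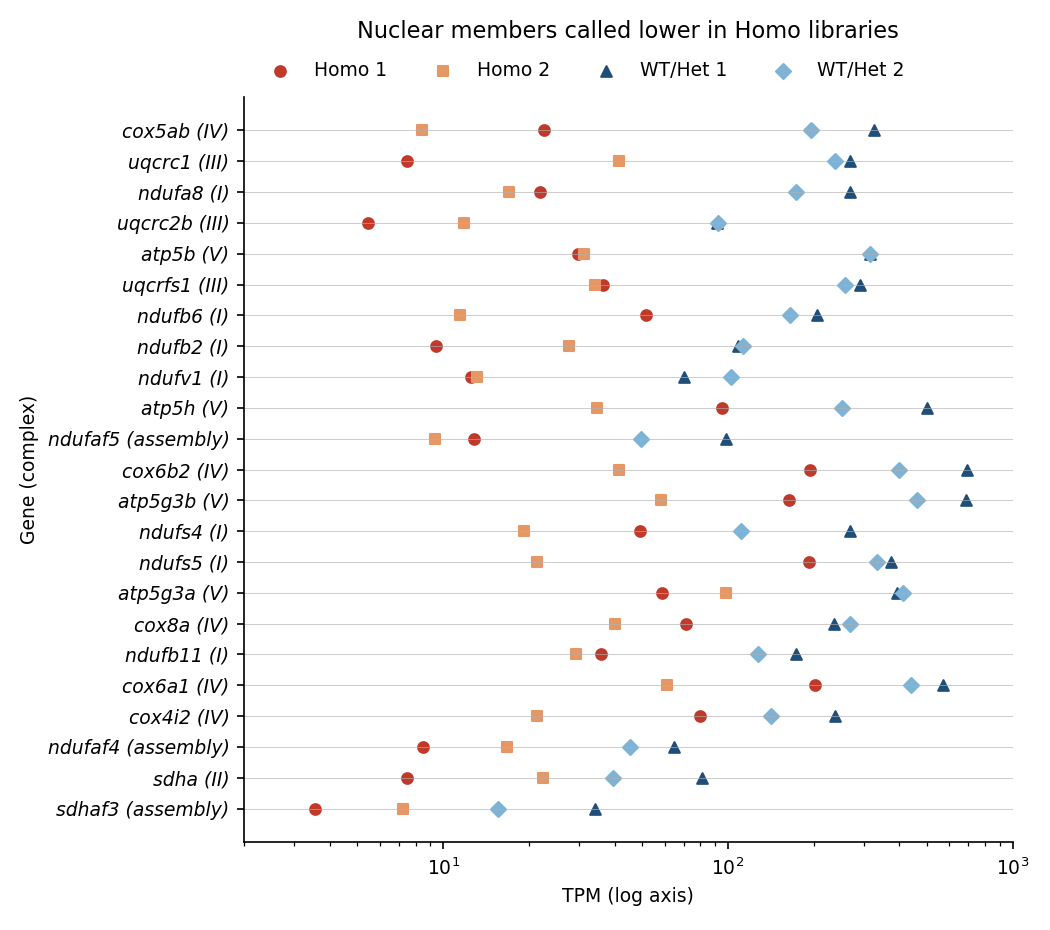
TPM (log axis) of 23 of the 24 nuclear members called lower in the Homo libraries, ordered by log2 fold change with the largest fall at the top; symbols are libraries and the complex is in brackets. In every one of the 23 both Homo libraries lie below both WT/Het libraries, which a call of lower itself favours. Of rows with a mean TPM of at least 50, 76% lay so, and of all rows tested 12%. The calls did not hold after median-of-ratios rescaling, quantile normalization or background subtraction.

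Rises among the nuclear members were rises of rows near the background. All 9 had a mean TPM of at most 15.7, and 6 of them were at or under the limit in every library. Besides those described, they were cox5b2, ndufa4l2a, ndufs8a, ndufaf2 and sdhaf1. The largest was in cox5b2, with 8.49 and 22.1 TPM in the Homo libraries and 2.07 and 4.31 TPM in the WT/Het libraries (limma log2 fold change 1.87, SE 0.56, adjusted p = 0.0126), of which the second Homo value was above the limit. It did not pass in limma without Homo replicate 2 (adjusted p = 0.329) or without WT/Het replicate 1 (0.168). The complex I assembly factor ndufaf2 had 34.5 and 12.8 TPM in the Homo libraries and 3.24 and 12.2 TPM in the WT/Het libraries. Its first Homo value and its second WT/Het value were above the limits. Of all rows tested, 44.6% were called higher, and 9 of 107 nuclear members were. All 24 rows that fell were above the limit in both WT/Het libraries. A call of lower itself favours this, as it needs higher WT/Het values and the limits are lower there. Of the 24, 12 were also above the limit in both Homo libraries, 7 in 1 Homo library and 5 in neither. The count of rises also changed with the library left out, as did the count over all rows tested.

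**Figure D5:**
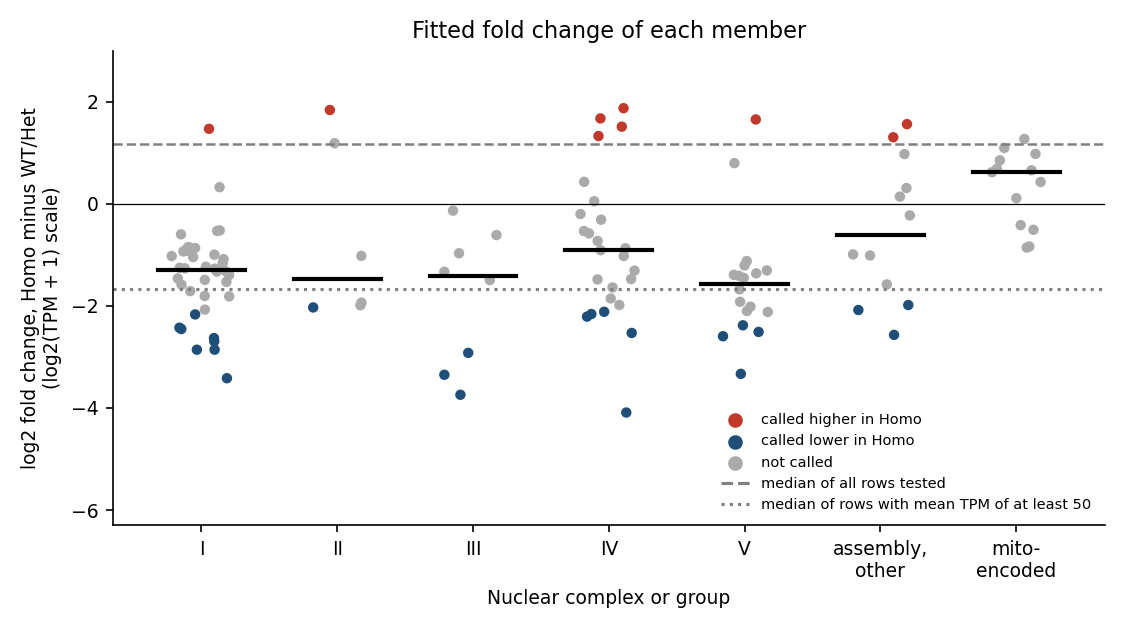
Fitted log2 fold change of each tested member (Homo minus WT/Het, log2(TPM + 1) scale), by nuclear complex and for the mitochondrially encoded genes; black bars are medians, blue and red points are called lower and higher. The dashed line is the median of all rows (1.17) and the dotted line that of rows with a mean TPM of at least 50 (-1.67), near which most nuclear complexes lie; the 13 mitochondrial genes, median 0.62 here, were all negative under median-of-ratios rescaling and all positive under quantile normalization.

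Assembly factors put the complexes together and are not part of the finished enzymes. The symbol rule took in 13 such rows, counting 2 atp5-named rows that are not subunits of ATP synthase. Of the 12 tested, 3 fell (25%) and 2 rose (16.7%), with a median log2 fold change of -0.61. Of all rows tested, 4.43% were called lower and 44.6% higher, and of rows with a mean TPM of at least 50, 33% and 0.168%. The factor ndufaf5, a complex I factor that modifies a core subunit, had 12.8 and 9.35 TPM in the Homo libraries and 98.7 and 49.4 TPM in the WT/Het libraries (limma log2 fold change -2.57, SE 0.80, adjusted p = 0.0149; 0.161 without WT/Het replicate 1). The complex I factor ndufaf4 had 8.52 and 16.8 TPM in the Homo libraries and 64.5 and 45.3 TPM in the WT/Het libraries (limma log2 fold change -2.08, SE 0.79, adjusted p = 0.0274). The complex II factor sdhaf3 had 3.53 and 7.24 TPM in the Homo libraries and 34.1 and 15.6 TPM in the WT/Het libraries (limma log2 fold change -1.98, SE 0.65, adjusted p = 0.0177). All 6 of the Homo values were under the limits. Without Homo replicate 1 ndufaf4 and sdhaf3 did not pass in limma (adjusted p 0.096 and 0.127), nor did they without WT/Het replicate 1 (0.184 and 0.151), and sdhaf3 did not without Homo replicate 2 (0.0831). A further list of 37 assembly genes outside the rule had 3 that fell (8.11%), cox10, coa6 and uqcc2, and none that rose.

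Genes that feed, serve and build the respiratory chain were counted in the same limma fit, in which 4.43% of all rows tested were called lower and 44.6% higher, and 33% and 0.168% of rows with a mean TPM of at least 50. Of 23 genes of the citric acid cycle and related steps (among them pyruvate dehydrogenase, pyruvate carboxylase and mdh1 genes), 6 fell and 4 rose. Those that fell were pdhb, dlst, sucla2, suclg1, fh and dlat, of which pdhb, for a subunit of pyruvate dehydrogenase, had 59.3 and 14.4 TPM in the Homo libraries and 217 and 259 TPM in the WT/Het libraries (limma adjusted p = 0.0148). Those that rose, pdha1b, pcxb, pcxa and ogdhb, were under the background limit in every library. Among 22 electron carrier and exchange genes 4 fell and 4 rose. The ADP/ATP carrier gene slc25a5 fell to 354 and 332 TPM in the Homo libraries, against 1973 and 1435 TPM in the WT/Het libraries (limma log2 fold change -2.29, adjusted p = 0.0324). The phosphate carrier gene slc25a3b fell to 23.7 and 30.9 TPM in the Homo libraries, against 364 and 159.7 TPM in the WT/Het libraries (limma log2 fold change -3.11, adjusted p = 0.012). Cytochrome c was represented by cycsb and cycsa. The gene cycsb did not pass, with 584 and 224 TPM in the Homo libraries and 680.5 and 724.8 TPM in the WT/Het libraries. The gene cycsa was called higher (limma log2 fold change 1.69, adjusted p = 0.0168). It had 11.7 and 11.7 TPM in the Homo libraries and 2.84 and 3.04 TPM in the WT/Het libraries, each under the limit of its library.

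Of 18 regulators of mitochondrial biogenesis 1 fell and 2 rose. The gene that fell was tfam, which packs and transcribes mitochondrial DNA, with 32.8 and 21.0 TPM in the Homo libraries and 114 and 131 TPM in the WT/Het libraries (limma log2 fold change -2.17, adjusted p = 0.0361). The coactivator gene ppargc1a was under the background limit in every library and did not pass. The mitochondrial RNA polymerase gene POLRMT rose to 12.7 and 12.3 TPM in the Homo libraries, against 4.16 and 2.41 TPM in the WT/Het libraries (limma adjusted p = 0.0182), and all of these values were under the limits. Of 27 protein import genes 9 fell and 1 rose, and of 75 mitochondrial ribosomal protein genes 16 fell and none rose. The list medians of the log2 fold change were -1.01 for the citric acid cycle and related steps and -0.82 for carriers and exchange. They were 0.44 for biogenesis regulators, -1.46 for import and -1.12 for the mitochondrial ribosome. Beside these stand 1.17 for all rows tested and -1.67 for rows with a mean TPM of at least 50. As for the members, 0 rows of these lists passed after median-of-ratios rescaling, quantile normalization or background subtraction.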

How the data were processed

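RNA of the sorted endothelial cells was turned into cDNA libraries by the SMART-Seq v4 method, per the labels' protocols. Each of the 4 libraries was deposited by the authors as 1 table of TPM, per the file headers. Trim Galore 0.6.6, cutadapt 2.8, HISAT2 2.2.1, SAMtools 1.7, StringTie 2.1.4 and the build GRCz11 are named in the submitters' processing notes, without roles. The annotation and any filter are not given in the sources used here. The listed TPM sum to different totals per library, TPM keeps no depth, and no counting interval was computed.

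Groups came from the sample titles. The limma 3.58.1 fit in R 4.3.3 used log2(TPM + 1), group as the only term, rows with a mean TPM of at least 1 and eBayes with an intensity trend, two-sided, with Benjamini-Hochberg adjustment. It had 2 residual degrees of freedom. An exact permutation test of 2 against 2 cannot give a two-sided p under 0.333 and was not used. The script was tested on simulated data. Figures used matplotlib 3.10.9. The members, lists, limits and alternatives were chosen with earlier results of these data known. Named genes are the 13 mitochondrial genes, the 3 most abundant subunits of each nuclear complex, the 4 largest rises and falls, and the cox4, cox6a, cox7a and atp5g isoforms; other members, among them those that passed, were named after their values were seen, and 1 gene is not reported here. RefSeq (GRCz12tu) symbols or synonyms matched 114 of 122 members, and no sequence is shown.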

Additional observations from a re-analysis of the deposited data

How the results depend on the processing

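The 24 lower and 9 higher nuclear calls became 0 and 0 with background subtraction, with quantile normalization and with median-of-ratios rescaling, where no row of the table was called. Lower nuclear calls were 47 with eBayes without trend, 11 with the replicate block, and 1 to 64 when a library was left out; higher ones were 0 to 11. The 13 mitochondrial genes had 1 higher call (mt-nd3) when scaled to the listed non-mitochondrial rows; leaving out a library gave 0 to 5 higher and 0 to 2 lower. These counts under other pseudocounts, filters and robust eBayes, and the nuclear counts scaled to non-mitochondrial rows (17 lower, 10 higher), stayed within 1.5 times. Of all rows tested, 4.43% were called lower in the main fit, 7.02% with eBayes without trend and 2.35% with the replicate block. For higher calls these shares were 44.6%, 28.6% and 53.9%. When scaled to the listed non-mitochondrial rows, 2.45% of all rows tested were called lower and 52.8% higher. The share of the 13 mitochondrial genes called higher under that scaling was thus below the share of all rows. Both shares also changed when a library was left out, so calls over the whole table moved with the setting too. The cause was not tested.

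The nuclear median log2 fold change of -1.33 was -2.69 with median-of-ratios rescaling, -0.21 with quantile normalization, -0.81 when scaled to non-mitochondrial rows, and -1.95 to -0.68 without a library. Relative to the median of all rows (1.17 as deposited, 0.03 after median-of-ratios rescaling) it was -2.49 as deposited, -2.73 with that rescaling, -0.26 with quantile normalization and -0.56 with background values subtracted. The mitochondrial median of 0.62 was -0.77 with median-of-ratios rescaling, 1.95 with quantile normalization and 1.15 when scaled to non-mitochondrial rows, and 0.20 to 0.74 without a library. The log2 ratio of group means of the summed TPM was -1.33 for nuclear rows (-2.67 after median-of-ratios rescaling, -2.09 to -0.84 without a library). For mitochondrial rows it was -0.13 as deposited, -1.62 after median-of-ratios rescaling, 0.44 when scaled to non-mitochondrial rows, and -0.38 to 0.18 without a library.

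Among the 67 named genes, 9 turned negative after median-of-ratios rescaling: mt-nd1 (-0.73), mt-nd2 (-0.70), mt-atp8 (-0.77), mt-atp6 (-1.27), mt-nd3 (-0.11), mt-nd4l (-0.29), mt-nd4 (-0.96), mt-nd5 (-0.40) and mt-nd6 (-0.53). After quantile normalization 15 turned positive: mt-co1 (0.70), mt-co2 (0.15), mt-co3 (0.29), mt-cyb (0.69), ndufb8 (0.26), ndufb9 (0.48), sdhdb (0.22), uqcrb (0.76), uqcrq (0.44), cox7a2a (0.48), cox4i1 (0.035), atp5a1 (0.036), cox6b1 (0.74), cox8b (0.39) and ndufa4l (0.52). When scaled to non-mitochondrial rows mt-co1 (0.11) and mt-cyb (0.021) did. Leaving out a library moved cox4i1l between -0.039 and 2.70, cox6a2 between -2.53 and 1.08, mt-atp6 between -0.22 and 0.45 and ndufb9 between -1.87 and 1.4e-04. No other named gene changed direction under the alternatives run.

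The replicate numbers were not taken as pairs: the labels do not tie them, and the replicate differences of the groups correlated with r = 0.13 across rows. With the replicate block, 11 of the 24 lower and 7 of the 9 higher nuclear calls remained. Depth is unknown, so what it limits could not be measured; the background limits of 14.2 and 19.0 TPM in the Homo libraries bound what low values there can show.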
